A study of Mus musculus with 16 samples.

Results

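The mRNAs described here encode the proteins of the cytosolic ribosome, the r-proteins, and were chosen by their gene symbols alone. The rule took symbols that begin with Rpl or Rps followed by a number, with or without a closing a, a1 or x, together with Rplp0, Rplp1, Rplp2 and Rpsa. It left out pseudogenes and the paralogs whose symbols end in l, and it found 77 of the 12900 RNAs of the table. Of these 77 mRNAs, 46 encode proteins of the large (60S) subunit and 31 encode proteins of the small (40S) subunit.

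The RNA came from NIH/3T3 cells, an established line of mouse embryonic fibroblasts, carrying a doxycycline-inducible β-globin reporter delivered by lentivirus. The reporter ended in the β-globin 3′UTR in the control line (HBB) and in the 3′UTR of Pkp4, an RNA that localizes to protrusions, in the other line (Pkp4 cUTR). Both lines received 1 μg/ml doxycycline for 3 days, were starved of serum and plated for 2 h on filters with 3 μm pores, were stimulated for 1 h with the lysophospholipid LPA from below, and were fixed for 10 min in 0.3% paraformaldehyde. Protrusions (Ps) on the lower side and cell bodies (CB) on the upper side were then collected, which gave 4 groups of 4 samples, HBB CB, HBB Ps, Pkp4 cUTR CB and Pkp4 cUTR Ps. All cells compared therefore carried a reporter and had been exposed to doxycycline and LPA, and neither line is untreated. The study calls the 4 samples of a group independent replicates without naming their cultures, so p-values measure the spread between these samples. The fit estimated this spread once per RNA over all 4 groups, not for the compared groups alone.

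A ribosome holds a single copy of nearly every r-protein, and a cell therefore makes them in matched amounts. The mRNAs of r-proteins are short, abundant and stable, and most begin with a cytosine followed by a run of pyrimidines, the 5′ terminal oligopyrimidine (TOP) motif, through which their translation is adjusted to nutrient and growth signals together. In migrating fibroblasts, mRNAs of this class are among those found in protrusions.

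The table held between 18660287 and 31260831 reads per sample, and its values are log2 CPM (reads per 1000000 reads of the library) with the scaling of the libraries made by the authors. Of 4 listed nuclear RNAs, 3 were in the table. *Malat1* was lower in protrusions by 1.85 and 1.27 and *Neat1* by 1.48 and 1.21 (log2, HBB and Pkp4 cUTR line). Each had a limma adjusted p under 0.05. *Kcnq1ot1* did not pass (−0.55 and −0.25), at a low mean log2 CPM of −0.52. Of 8 fibroblast markers, 7 were in the table, and among them *Col1a1*, *Col1a2*, *Vim*, *S100a4* and *Fn1* had mean log2 CPM above 11. Summed over each list, the markers of other cell types stayed between 10.7 and 20.4 CPM (epithelial, 2 of 4 listed), 4.08 and 8.04 CPM (blood, 2 of 3), 0.505 and 1.91 CPM (endothelial, 2 of 3) and 20.5 and 65.1 CPM (muscle, 1 of 3), against 19249 to 31485 CPM for the fibroblast markers. The muscle value is that of *Des* alone. The fibroblast markers summed to 25905 to 31485 CPM in cell bodies and 19249 to 22525 CPM in protrusions. Of the 7, 5 were lower in protrusions of both lines at a limma adjusted p under 0.05. The other 2 were higher at this threshold, *Vim* (0.55 and 0.52, log2) and *S100a4* (0.52 and 0.59). The 3 nuclear RNAs summed to 476 to 723 CPM in cell bodies and 160 to 315 CPM in protrusions. The part of these shifts in the values below was not tested. The row named *Pkp4*, which also counts reads of the construct's 3′UTR, was 4.44 higher (log2) in Pkp4 cUTR than in HBB cell bodies.

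The TOP motif itself lies at the first bases of the mRNA, so the sequences around the annotated transcription starts were searched for CTCTTTC, a pyrimidine stretch that begins with a cytosine. RefSeq promoter sequences (GRCm38.p6), which reach from 250 bases before the start to 50 bases after it, were found for 57 of the 77 genes. On the strand of the gene, CTCTTTC was present in 13 of the 57 (22.8%), in 10 of 34 large-subunit genes and 3 of 23 small-subunit genes, against 4.60% of 27025 genes. In the last 100 bases of the window it was present in 12 of the 57 (21.1%), against 1.62% of all genes. The motif TATAAA, searched in the same way on the gene's strand, was present in 8.77% of the 57 and 9.77% of all genes. A further motif, CCGGAAG, was present in 26.3% of the 57 and 5.40% of all genes. In the last 100 bases it was present in 15.8% and 3.18%. An excess over all genes was therefore not particular to CTCTTTC. The windows of 6 genes are shown because their mRNAs lie at different places in the order of enrichment described further on. They are written 5′ to 3′ with CTCTTTC in capitals, and the letters are those of the genome and not of a mapped mRNA end.
Rpl26 (chr11:68901578-68901607, plus strand): cgcgtgtagttCTCTTTCcttttgcggcca
Rpl36a (chrX:134585674-134585703, plus strand): gctctagcctctCTCTTTCcgagctgctag
Rpl5 (chr5:107900497-107900526, plus strand): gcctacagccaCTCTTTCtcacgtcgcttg
Rpl28 (chr7:4792954-4792983, plus strand): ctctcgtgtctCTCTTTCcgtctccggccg
Rpl19 (chr11:98026944-98026973, plus strand): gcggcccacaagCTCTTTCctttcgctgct
Rpl18 (chr7:45718061-45718090, plus strand): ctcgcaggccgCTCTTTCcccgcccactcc
In *Rpl28* the motif began at the RefSeq start itself and in *Rpl18* it began 1 base after it, while in *Rpl26*, *Rpl36a* and *Rpl19* it began 23 to 32 bases after the RefSeq start and in *Rpl5* 20 bases before it. Starts differ between annotations, and the GENCODE start of *Rpl26*, given further on, lies nearer to the motif. A match is a description of these letters only, and its absence from another window says nothing about that mRNA's first bases.

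The first comparison asked how strongly r-protein mRNAs were enriched in protrusions of the control line. Nearly all of them were higher in HBB Ps than in HBB CB, with a median log2(FC) of 1.11 against 0.01 over all RNAs. The study's threshold for enrichment, more than 2-fold at an unadjusted p of less than 0.05, was passed by 57 of 77 (74.0%), against 4.54% of all RNAs. At an adjusted p under 0.05 (limma, Benjamini-Hochberg over all 12900 RNAs) 76 of 77 were higher, against 28.3% of all RNAs, and none was lower. In these 76 mRNAs all 4 HBB Ps samples lay above all 4 HBB CB samples, which was so for 25.5% of all RNAs. Leaving out *Rpl24*, the log2(FC) ran from 0.72 for *Rpl3* to 1.49 for *Rpl21*, a range from 1.65-fold to 2.80-fold. The exception, *Rpl24*, is described with the single mRNAs.

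The share of all reads that fell on the 77 mRNAs followed the same course. It was 12.7%, 12.2%, 12.6% and 14.1% in the 4 HBB CB samples and 23.2%, 22.2%, 24.6% and 22.1% in the 4 HBB Ps samples. In the Pkp4 cUTR line it was 16.03%, 13.7%, 13.3% and 17.4% in CB and 24.3%, 26.1%, 29.5% and 23.1% in Ps. The ranges of the fractions did not overlap in either line. Since all values are relative to the other RNA of a library, a rise of these mRNAs and a fall of the others cannot be told apart, nor, in bulk samples, fewer cells and less RNA per cell. With reads scaled to each sample's total, the median of all RNAs moved to −0.23 in the HBB line, and only 13 of the mRNAs passed the 2-fold threshold. Relative to that median the r-protein median was 1.11 under both scalings, and 76 of the 77 had an adjusted p under 0.05 under both. Quantile normalization lowered their median to 0.53 and the number past 2-fold to 7, with 72 at an adjusted p under 0.05.

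In the Pkp4 cUTR line the same mRNAs had a median log2(FC) of 1.04, against 0.01 over all RNAs. Past the 2-fold threshold were 52 of 77 (67.5%), against 5.07% of all RNAs, and all 52 were also among the 57 of the HBB line, against 3.02% of all RNAs past it in both. Again 76 had an adjusted p under 0.05 in the direction of protrusions, against 28.2% of all RNAs. In these 76 the 4 Ps samples lay above the 4 CB samples, against 22.6% of all RNAs. The log2(FC) ran from 0.68 (*Rpl15*) to 1.44 (*Rpl21*) when *Rpl24* was left out. The count past 2-fold fell to 24 without Pkp4 cUTR Ps replicate 3 and to 33 without Pkp4 cUTR CB replicate 3, where the median log2(FC) was 0.93 and 0.98. Reads scaled to totals left 7 past this threshold and quantile normalization left 0, and limma gave 76 and 66 at an adjusted p under 0.05 and 76 and 68 at an unadjusted one.

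The subunits were then compared. In the HBB line the median log2(FC) was 1.11 over the large-subunit mRNAs and 1.14 over the small-subunit mRNAs, a difference of −0.02. In the Pkp4 cUTR line both medians were 1.04. Without *Rpl24*, the large-subunit mRNAs ran from 0.72 to 1.49 in the HBB line and from 0.68 to 1.44 in the Pkp4 cUTR line. The small-subunit mRNAs ran from 0.85 to 1.44 and from 0.80 to 1.44, so that both extremes belonged to the large subunit. Past 2-fold in the HBB line were 32 of 46 large-subunit mRNAs (69.6%) and 25 of 31 small-subunit mRNAs (80.6%), and in the Pkp4 cUTR line 29 (63.0%) and 23 (74.2%).

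The values by sample show how closely the subunits moved together. From each mRNA's log2 CPM its mean over the 16 samples was subtracted, and a subunit was described by the median of its members. In HBB CB the large-subunit median was −0.66, −0.73, −0.65 and −0.53 and the small-subunit median −0.69, −0.75, −0.68 and −0.56. In HBB Ps they were 0.48, 0.37, 0.64 and 0.32 for the large subunit and 0.49, 0.34, 0.64 and 0.31 for the small subunit. A sample that was high for one subunit was high for the other. In Pkp4 cUTR CB the medians were −0.30, −0.57, −0.63 and −0.23 for the large subunit and −0.31, −0.55, −0.64 and −0.18 for the small subunit. The corresponding values in Pkp4 cUTR Ps were 0.55, 0.64, 0.95 and 0.37 against 0.58, 0.64, 0.99 and 0.41. The difference between the subunits stayed between −0.05 and 0.03 in all 16 samples, while a single subunit's median varied with an SD (n = 4) of 0.09 and 0.14 in HBB CB and Ps and of 0.19 and 0.25 in Pkp4 cUTR CB and Ps for the large subunit. Between Ps and CB the difference changed by −0.02 in each line, against a combined SD of 0.02 and 0.03, so it was not larger than the spread between replicates.

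**Figure D1:**
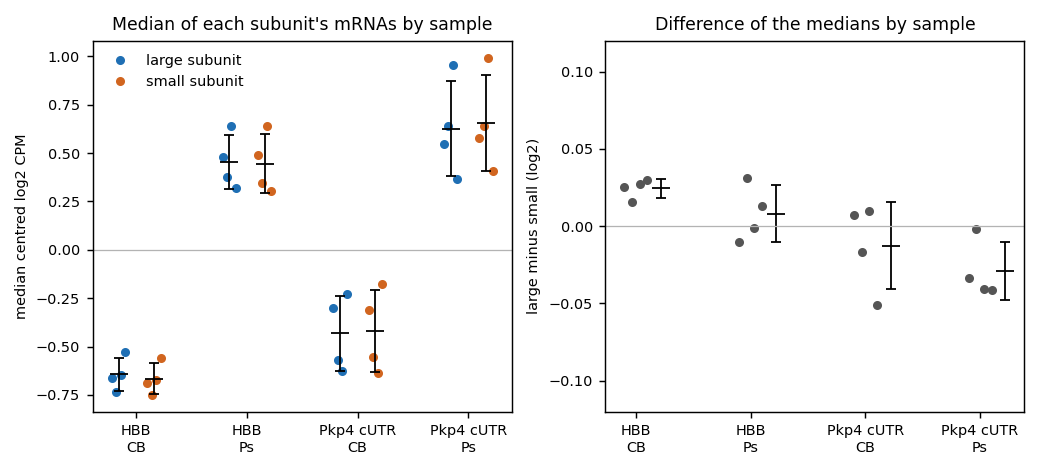
Left, the median centred log2 CPM of the 46 large-subunit (blue) and 31 small-subunit (orange) mRNAs in each of the 16 samples. Right, the difference of these medians (large minus small, log2). Points are samples and bars are the mean ± SD (n = 4). The fractions lie about 1 log2 unit apart, while the differences between subunits all lie between −0.05 and 0.03.

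Weighted by reads, the picture was a little different. The large-subunit mRNAs held 1.36, 1.34, 1.37 and 1.32 reads for each read on the small-subunit mRNAs in HBB CB, and 1.29, 1.28, 1.29 and 1.30 in HBB Ps. The groups did not overlap, with means of 1.35 ± 0.02 and 1.29 ± 0.01 (SD, n = 4). In the Pkp4 cUTR line the ratios were 1.30, 1.32, 1.33 and 1.27 in CB and 1.29, 1.26, 1.23 and 1.28 in Ps, which overlapped. Without *Rplp0*, the member with the most reads, the means were 1.22 ± 0.015 in HBB CB and 1.19 ± 0.0036 in HBB Ps, which still did not overlap, and 1.19 ± 0.013 and 1.17 ± 0.013 in the fractions of the Pkp4 cUTR line, which did. When *Rpl3* and *Rpl8* were left out as well, the HBB fractions overlapped, at 1.080 to 1.108 in CB and 1.082 to 1.090 in Ps. Their means were then 1.094 ± 0.013 and 1.087 ± 0.0038, so the difference in the HBB line rested largely on these abundant members.

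**Figure D2:**
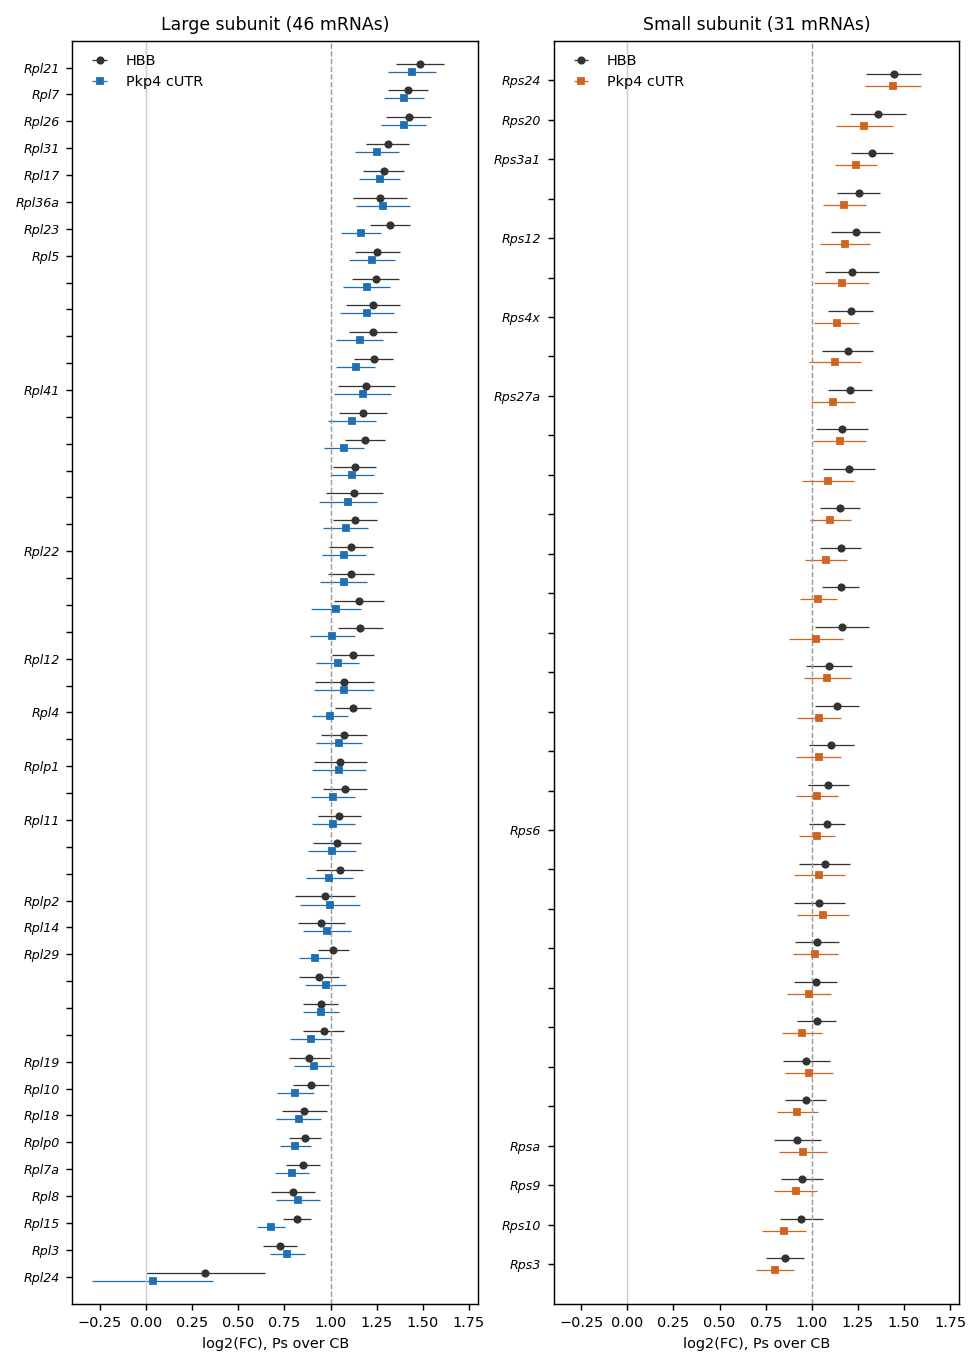
log2(FC) of protrusions over cell bodies for each of the 77 mRNAs, large subunit left and small subunit right, ordered by the mean of the lines, with mRNAs described in the text named. Circles are HBB and squares Pkp4 cUTR, and the dashed line marks a fold change of 2. Bars are standard errors of the limma fit, whose spread is estimated once per RNA over all 4 groups. The order is nearly the same in the lines, and *Rpl24* stands apart below.

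Groups of r-proteins that sit together on the ribosome were read against the same background, in which 28.3% (HBB) and 28.2% (Pkp4 cUTR) of all RNAs were higher in protrusions at an adjusted p under 0.05 and 4.54% and 5.07% passed 2-fold. The P stalk recruits the elongation factors and consists of Rplp0 at its base, pairs of Rplp1 and Rplp2, and Rpl12 beside them. Its 4 mRNAs had log2(FC) in the HBB line of 0.86 ± 0.09 (*Rplp0*), 0.97 ± 0.16 (*Rplp2*), 1.05 ± 0.14 (*Rplp1*) and 1.12 ± 0.11 (*Rpl12*), each ± SE. All 4 rose at an adjusted p under 0.05, *Rplp1* and *Rpl12* past 2-fold, and their median of 1.01 lay below that of all members. The 5S particle joins Rpl5 and Rpl11 to the 5S rRNA, and when it is not built into ribosomes it binds the p53 regulator Mdm2. *Rpl5* was 2.39-fold and *Rpl11* 2.07-fold higher in protrusions of the HBB line, and 2.33-fold and 2.02-fold in the Pkp4 cUTR line.

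At the rim of the tunnel through which the nascent chain leaves sit Rpl17, Rpl19, Rpl22, Rpl23a, Rpl26, Rpl31, Rpl35, Rpl37 and Rpl39. All 9 of these mRNAs rose in both lines (28.3% and 28.2% of all RNAs did), with medians of 1.23 (HBB) and 1.14 (Pkp4 cUTR). Past 2-fold were 8 of the 9 in each line, against 74.0% and 67.5% of all r-protein mRNAs and 4.54% and 5.07% of all RNAs. *Rpl19*, at 0.88 ± 0.11 and 0.91 ± 0.11, was the member of this group below 2-fold in both. In the small subunit, the 14 mRNAs for proteins of the head had medians of 1.16 and 1.08 and the 17 for the body and platform had medians of 1.11 and 1.04, and all 31 rose in both lines. A further list held 9 members whose genes are mutated in Diamond-Blackfan anaemia, a failure of red cell formation. Its medians were 1.16 and 1.15, all 9 rose, and 8 passed 2-fold in each line, the exception being *Rps10* at 0.94 ± 0.12 and 0.85 ± 0.12.

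Some members are known beyond the ribosome. *Rps6* encodes the substrate of the S6 kinases and stood near the median with 1.08 ± 0.10 and 1.03 ± 0.10. *Rps27a* is translated as a fusion with ubiquitin and had 1.21 ± 0.12 and 1.11 ± 0.12. *Rpsa*, whose product is also known as a laminin receptor, was below the median at 0.92 ± 0.13 and 0.95 ± 0.13. *Rpl10*, whose product joins the 60S subunit late in its maturation, had 0.89 ± 0.10 and 0.81 ± 0.10. The X-linked *Rps4x* had 1.21 ± 0.12 and 1.14 ± 0.12, and *Rpl41*, which encodes the smallest r-protein, had 1.19 ± 0.15 and 1.17 ± 0.16. All of them rose at an adjusted p under 0.05 in both lines.

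To ask which single mRNAs differed from the rest, each sample was shifted so that the median r-protein mRNA had the same level in all samples, and the same fit was run over all RNAs. A departure from 0 then means more or less enriched than the median member. In the HBB line 20 of 77 departed at an adjusted p under 0.05, against 85.9% of all RNAs, of which 11 were more enriched (background 0.574%) and 9 less enriched (background 85.4%). In the Pkp4 cUTR line 19 departed (background 83.9%), 8 more enriched (background 0.589%) and 11 less enriched (background 83.3%). Since most RNAs depart under this shift, the adjustment is mild and an adjusted p lies close to the unadjusted one. The count in the HBB line was 10 without HBB CB replicate 4 and 13 without HBB Ps replicate 2, and it was 32 without precision weights. With the replicate block, which here pairs protrusions and cell bodies of the same number, 13 departed in each line. Deviations of such pairs from the group means correlated at 0.05 to 0.39 in HBB and −0.36 to 0.00 in Pkp4 cUTR cells.

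In both lines 8 mRNAs were more enriched than the median, *Rpl21*, *Rpl7*, *Rpl26*, *Rps24*, *Rps20*, *Rpl31*, *Rpl17* and *Rpl36a*, against 0.411% of all RNAs. Another 8 were less enriched in both, *Rpl3*, *Rpl8*, *Rpl15*, *Rpl18*, *Rpl7a*, *Rplp0*, *Rps3* and *Rpl24*, against 81.1% of all RNAs. Some of these calls were lost in most alternatives in the HBB line, as *Rpl36a* passed in 9 and *Rplp0* in 10 of 23. Others were lost in fewer, as *Rpl15* passed in 15 of 23 in the HBB line. In the Pkp4 cUTR line *Rpl31* passed in 13 and *Rplp0* in 17 of 23. The mRNAs *Rpl21*, *Rpl7*, *Rpl26*, *Rps24*, *Rpl3*, *Rpl8*, *Rpl18* and *Rps3* passed in all 23 in both lines. The 23 include fits that left out a sample of the other line, which test a line's own call less. Of these 16, 13 belong to the large subunit, which holds 46 of the 77 members, and the 13 include *Rpl24* with its 17 to 46 reads per sample. Across the 76 members other than *Rpl24*, log2(FC) in the HBB line and in the Pkp4 cUTR line, which share no sample, had a Pearson r of 0.96 and a Spearman rho of 0.95, against 0.92 and 0.93 over 11292 other RNAs with a coding transcript, given as a description. The windows printed above fall on both sides, with *Rpl26* and *Rpl36a* more enriched and *Rpl18* less enriched than the median in both lines, and *Rpl19* less enriched in the HBB line alone at this threshold.

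**Figure D3:**
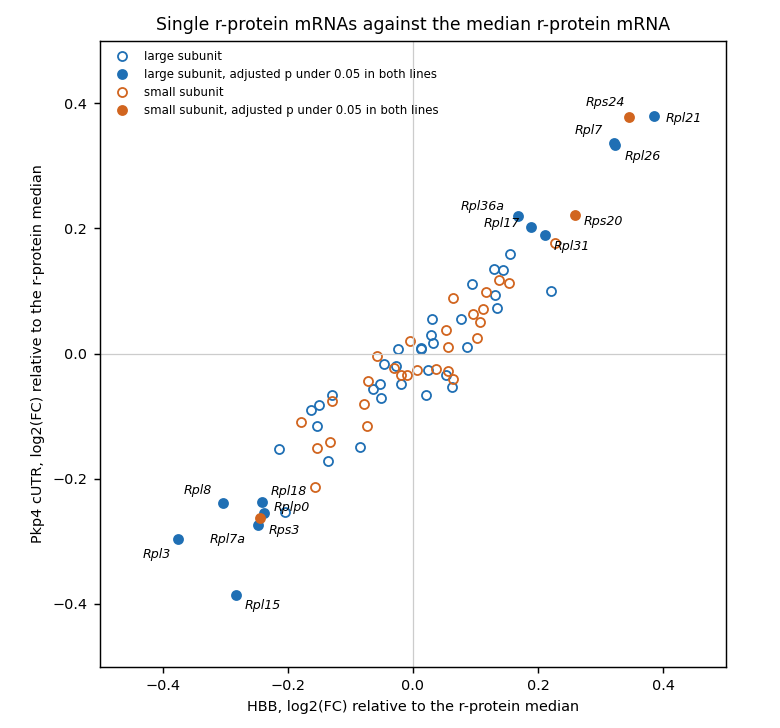
log2(FC) relative to the r-protein median in HBB (horizontal) and Pkp4 cUTR (vertical) cells for 76 mRNAs, with *Rpl24* left off. Filled points had an adjusted p under 0.05 (limma) in both lines and are named. The named mRNAs lie at both ends of a band along the diagonal, and 2 of the 8 at the upper end and 1 of the 7 at the lower end encode small-subunit proteins.

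*Rpl21* (GRCm38, chr5:146832890-146837032, plus strand) had the highest log2(FC) in both lines. Its log2 CPM was 9.77, 9.64, 9.71 and 9.78 in HBB CB, 11.21, 11.10, 11.42 and 11.11 in HBB Ps, 10.12, 9.83, 9.71 and 10.32 in Pkp4 cUTR CB, and 11.27, 11.46, 11.81 and 11.21 in Pkp4 cUTR Ps. Every protrusion sample of either line lay above every cell body sample of both. The log2(FC) was 1.49 ± 0.13 and 1.44 ± 0.13, and relative to the r-protein median it was 0.39 ± 0.07 (adjusted p = 0.000133) and 0.38 ± 0.08 (adjusted p = 0.000174).

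*Rps24* (chr14:24487125-24496959, plus strand), a Diamond-Blackfan gene, led the small subunit. It read 9.91, 9.78, 9.90 and 9.94 in HBB CB, 11.34, 11.27, 11.51 and 11.19 in HBB Ps, 10.56, 10.15, 10.00 and 10.67 in Pkp4 cUTR CB, and 11.55, 11.87, 12.23 and 11.49 in Pkp4 cUTR Ps. The fractions were well apart, and the Pkp4 cUTR samples spread more widely than the HBB samples. Its log2(FC) was 1.44 ± 0.15 and 1.44 ± 0.15, which departed from the median by 0.35 (adjusted p = 0.0013) and 0.38 (adjusted p = 0.000721). *Rps20* encodes a protein of the 40S head, and its log2(FC) of 1.36 ± 0.15 and 1.29 ± 0.15 came next in this subunit. Also at the upper end were *Rps3a1* and *Rps12*, at 2.51-fold and 2.36-fold in the HBB line and 2.36-fold and 2.27-fold in the Pkp4 cUTR line, and of these *Rps3a1* departed from the median in the HBB line alone.

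*Rpl26* (chr11:68901583-68906989, plus strand) encodes a protein at the tunnel exit that also binds p53 mRNA. Its values were 10.05, 9.91, 10.00 and 9.98 in HBB CB, 11.42, 11.29, 11.59 and 11.32 in HBB Ps, 10.39, 10.16, 9.94 and 10.44 in Pkp4 cUTR CB, and 11.51, 11.65, 11.98 and 11.37 in Pkp4 cUTR Ps. Again no cell body sample reached the protrusion samples. The departure was 0.32 ± 0.08 (adjusted p = 0.000777) in HBB and 0.33 ± 0.08 (adjusted p = 0.000657) in Pkp4 cUTR cells. *Rpl7* had nearly the same size of departure, 0.32 and 0.34, with log2(FC) of 1.42 ± 0.11 and 1.40 ± 0.11. The tunnel-rim mRNAs *Rpl31* and *Rpl17* followed at 2.48-fold and 2.44-fold in HBB and 2.38-fold and 2.41-fold in Pkp4 cUTR cells.

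**Figure D4:**
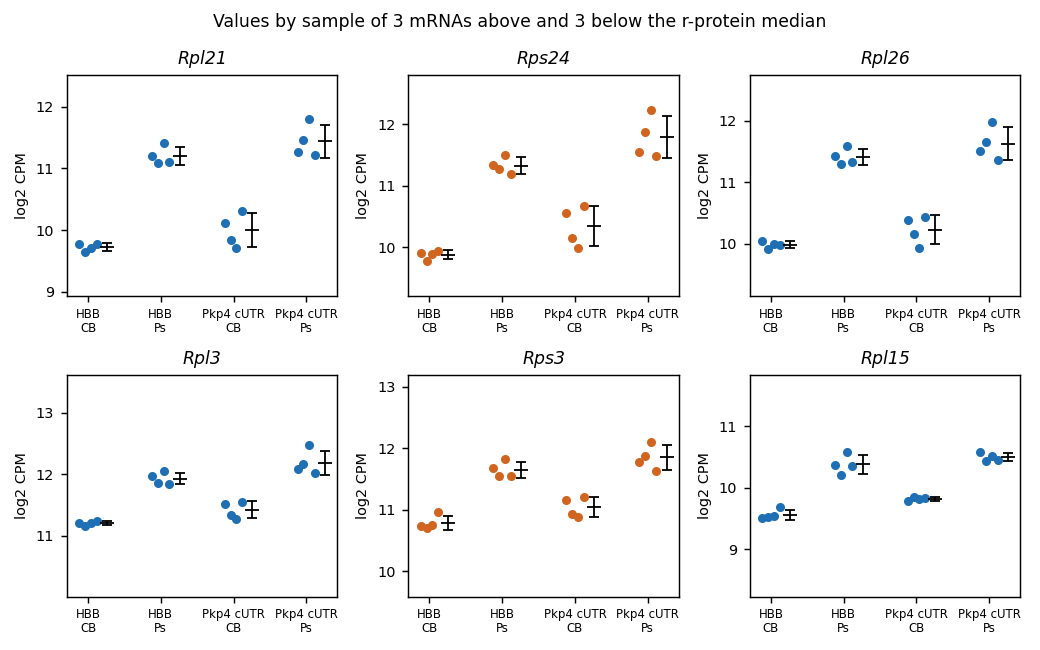
log2 CPM by sample of *Rpl21*, *Rps24* and *Rpl26* (above) and *Rpl3*, *Rps3* and *Rpl15* (below), in the same height of axis. Points are samples, bars are the mean ± SD (n = 4), blue marks large-subunit and orange small-subunit mRNAs. The step from CB to Ps is larger in the upper row, and *Rpl15* varies least between the Pkp4 cUTR samples.

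At the other end, *Rpl3* (chr15:80077791-80091868, minus strand) encodes a protein close to the peptidyl transferase centre. Its log2 CPM was 11.21, 11.16, 11.20 and 11.24 in HBB CB, 11.96, 11.86, 12.04 and 11.85 in HBB Ps, 11.52, 11.34, 11.27 and 11.55 in Pkp4 cUTR CB, and 12.09, 12.16, 12.47 and 12.03 in Pkp4 cUTR Ps. The protrusion samples were all above the cell body samples, by less than for *Rpl21*. The log2(FC) was 0.72 ± 0.09 and 0.77 ± 0.09, and its departures were −0.37 (adjusted p = 0.000307) and −0.30 (adjusted p = 0.00244). *Rpl8*, whose product also lies at the peptidyl transferase centre, had 0.80 ± 0.12 and 0.83 ± 0.12. *Rpl7a* and *Rpl18* had log2(FC) of 0.85 and 0.86 in HBB and of 0.79 and 0.83 in Pkp4 cUTR cells.

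*Rps3* (chr7:99477896-99483738, minus strand), whose product lines the entry of the mRNA channel, was the least enriched small-subunit mRNA. It read 10.74, 10.71, 10.75 and 10.96 in HBB CB, 11.67, 11.55, 11.82 and 11.55 in HBB Ps, 11.17, 10.93, 10.89 and 11.20 in Pkp4 cUTR CB, and 11.78, 11.88, 12.11 and 11.64 in Pkp4 cUTR Ps. The groups did not overlap between fractions, and HBB CB replicate 4 was the highest of its group. Its log2(FC) of 0.85 ± 0.10 and 0.80 ± 0.10 departed by −0.24 (adjusted p = 0.00491) and −0.26 (adjusted p = 0.0033). *Rps10* and *Rps9* were also at the lower end with 0.94 and 0.95 in HBB cells, and of these *Rps10* departed in the Pkp4 cUTR line alone (−0.21, adjusted p = 0.013). *Rps10* shares exon positions with *Gm15420* and *RPS10-NUDT3* in the annotation if strand is ignored, and whether its reads were split was not tested.

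*Rpl15* (chr14:18267823-18271391, minus strand), which shares exon positions with *Nkiras1* if strand is ignored, varied differently from the other members. Its values were 9.51, 9.52, 9.54 and 9.68 in HBB CB, 10.37, 10.21, 10.59 and 10.35 in HBB Ps, 9.78, 9.85, 9.81 and 9.83 in Pkp4 cUTR CB, and 10.58, 10.43, 10.52 and 10.46 in Pkp4 cUTR Ps. In Pkp4 cUTR CB, where most members were high in replicates 1 and 4, *Rpl15* stayed between 9.78 and 9.85, and its SD was 0.03 (n = 4) against a median of 0.20 over the 76 members. Its log2(FC) was 0.82 ± 0.08 and 0.68 ± 0.08, and the departures were −0.28 (adjusted p = 0.0337) and −0.39 (adjusted p = 0.00634). Under quantile normalization they were −0.02 and −0.09 and did not pass.

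The row of *Rpl24* (chr16:55966275-55971435, plus strand) held 17 to 46 reads per sample, while the other 76 rows held means of 4320 to 211699 reads. Its log2 CPM was −0.02, −0.65, −0.52 and 0.76 in HBB CB, 0.37, 0.07, 0.01 and 0.17 in HBB Ps, 0.11, −0.60, −0.39 and 0.96 in Pkp4 cUTR CB, and −0.22, 0.46, 0.12 and −0.15 in Pkp4 cUTR Ps. The fractions overlapped in both lines, and CB replicate 4 was the highest sample of each line. The log2(FC) was 0.32 ± 0.32 (adjusted p = 0.408) and 0.04 ± 0.33 (adjusted p = 0.932). Relative to the r-protein median it was −0.78 ± 0.31 (adjusted p = 0.0275) and −1.03 ± 0.32 (adjusted p = 0.0063). In the annotation its exons are shared with *Gm28037*, for which no row was analysed here, and the part of such sharing in its low count was not tested.

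How the members varied within a group was also described. Over the 76 members and all 16 samples, the r-protein median of a sample held 83.2% of the variance of the members around their group means, and the median over members was 87.7%. The share was lowest for *Rpl15*, *Rpl29*, *Rplp0*, *Rpl4* and *Rpl7a*, all of the large subunit, and below 0 for the first 3 of these, whose values moved less than or apart from the median. For *Rpl29* the Pkp4 cUTR CB samples read 7.05, 7.12, 7.05 and 7.05, and for *Rplp0* they read 12.78, 12.74, 12.70 and 12.78. In the same samples the r-protein median ran from −0.63 to −0.21.

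The change of enrichment with the Pkp4 cUTR, log2(Diff FC), was the next comparison, which asked whether the competing 3′UTR altered the enrichment of these mRNAs. None of the 77 mRNAs had an unadjusted interaction p under 0.1 in limma, against 5.80% of all RNAs, none had one under 0.05 (2.33% of all RNAs), and none of the 12900 RNAs had an adjusted p under 0.05. The median log2(Diff FC) was −0.05 over the members, −0.04 over the large and −0.06 over the small subunit, and 0.01 over all RNAs. It was below 0 in 66 of 77 and above 0 in 11 (14.3%), against 51.6% of all RNAs above 0, but single libraries turned this direction. The median was 0.05 without Pkp4 cUTR Ps replicate 4, 0.03 without Pkp4 cUTR CB replicate 4 and 0.02 without HBB Ps replicate 3, with 52, 48 and 48 members above 0, and it was −0.15 with 0 above without Pkp4 cUTR Ps replicate 3. The smallest p belonged to *Rpl15*, with −0.14 ± 0.11 (95% interval −0.36 to 0.09). *Rpl23*, at the interface between the subunits, had −0.16 ± 0.15 (−0.48 to 0.17), and *Rpl4* had −0.12 ± 0.14 (−0.42 to 0.17), and every adjusted p of the members rounded to 1.00.

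The precision of these interaction values limits what they show. Over the 76 members the standard error had a median of 0.17, and the 95% intervals reached down to a median of −0.41 and up to a median of 0.31. With 4 samples in each of the 4 groups, a change of any size within a member's interval remains compatible with its values. Under quantile normalization 21 members had an unadjusted p under 0.1, with a median log2(Diff FC) of −0.13, and 0 an adjusted p under 0.05. The median over all RNAs was then −0.0044, and the share of all RNAs past this threshold was not taken. *Rpl15* passed the unadjusted threshold of 0.1 without HBB Ps replicate 2 and with reads scaled to totals, as the only member to do so there.

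The lines themselves were compared within each fraction. In cell bodies all 77 mRNAs had higher means in Pkp4 cUTR than in HBB cells, against 50.6% of all RNAs. The median difference was 0.23 (log2), 0.22 in the large and 0.25 in the small subunit, against 0.00 over all RNAs. These mRNAs share their libraries and moved largely together. The r-protein median of a sample overlapped between the lines, at −0.74 to −0.53 in HBB CB and −0.63 to −0.21 in Pkp4 cUTR CB. At an adjusted p under 0.05 only *Rpl15* differed (1 of 77, 1.30%), against 8.97% of all RNAs in either direction and 3.42% with a higher level, and 32 had an unadjusted p under 0.05 and a higher level (41.6%), against 10.8% of all RNAs. The Pkp4 cUTR CB samples lay wholly above the HBB CB samples in 11 members, against 6.49% of all RNAs. *Rpl15* was higher by 0.26 ± 0.08 (95% interval 0.10 to 0.41, adjusted p = 0.0405). *Rps24* showed the largest difference, 0.46 ± 0.15 (adjusted p = 0.0563), and *Rpl4* had 0.30 ± 0.10 (adjusted p = 0.057).

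Samples of the other fraction also enter the comparisons between lines, because the fit estimates the spread once per RNA over all 4 groups. SDs of the r-protein median were 0.09 (HBB CB), 0.15 (HBB Ps), 0.20 (Pkp4 cUTR CB) and 0.25 (Pkp4 cUTR Ps). The count in cell bodies moved with single libraries. It was 7 without Pkp4 cUTR CB replicate 3 and 4 without Pkp4 cUTR Ps replicate 3, 3 without Pkp4 cUTR Ps replicate 4, and 0 without HBB CB replicate 1, 2 or 3, HBB Ps replicate 1 or 4, Pkp4 cUTR CB replicate 1 or 4, or Pkp4 cUTR Ps replicate 2. Quantile normalization gave 18. Shares over all RNAs were not taken for these alternatives, so whether such counts are particular to the members is not known. The 32 at an unadjusted p under 0.05 became 5 without Pkp4 cUTR CB replicate 4, 9 without CB replicate 1 of that line, 11, 12 and 16 without HBB CB replicate 2, 3 and 1, and 52 without Pkp4 cUTR CB replicate 3. With the replicate number as a block, which pairs the lines, the count stayed at 1.

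In protrusions 76 of 77 were higher in Pkp4 cUTR cells, against 52.7% of all RNAs. The median difference was 0.19, against 0.01 over all RNAs. The r-protein median of a sample again overlapped, at 0.32 to 0.64 in HBB Ps and 0.37 to 0.98 in Pkp4 cUTR Ps. No member passed an adjusted p under 0.05 in limma (background 7.16%), and 8 had an unadjusted p under 0.05 and a higher level (10.4%), against 10.6% of all RNAs. Single libraries moved this count and the median difference, and the share over all RNAs was not taken for these fits. The count was 46 without Pkp4 cUTR Ps replicate 4, 30 without HBB Ps replicate 3, 13 without Pkp4 cUTR CB replicate 4, 4 without Pkp4 cUTR Ps replicate 2, 2 without HBB Ps replicate 2 or 4, and 1 without Pkp4 cUTR Ps replicate 3, where the median was 0.08. No member had its Pkp4 cUTR Ps samples wholly above its HBB Ps samples, against 6.31% of all RNAs. *Rps24* again had the largest difference, 0.46 ± 0.15 (95% interval 0.14 to 0.78, adjusted p = 0.0805), followed by p by *Rpl3* with 0.26 ± 0.09 (adjusted p = 0.106) and *Rpl14* with 0.33 ± 0.13 (adjusted p = 0.137). *Rps24* passed without Pkp4 cUTR CB replicate 4 and without Pkp4 cUTR Ps replicate 4, as the 1 member called there. The only member with a lower mean was *Rpl24*, by −0.13 ± 0.34, on its few reads.

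Levels were compared between members per kb of transcript (GENCODE vM21), leaving out *Rpl24*. The median over members was 1806 CPM per kb in HBB CB and 3934 in HBB Ps, and 2160 and 4618 in Pkp4 cUTR CB and Ps. The middle 50% of the members lay within a ratio of 2.19 over all samples. The highest levels, as means over all samples, were those of *Rps12* (13222 CPM per kb), *Rplp1* (11132) and *Rpl41* (11065). The lowest were *Rpl29* (325) and *Rpl5* (610), and the *Rpl5* transcript of the annotation is 2045 bases long, which lowers the value if shorter forms are made. The next lowest, *Rps20* (941), has an annotated transcript of 3706 bases, to which the same limit applies. Averaged over members, the small subunit stood higher, with a median of 3868 CPM per kb over 31 mRNAs against 2600 over 45, while the quartiles, 2378 to 4509 and 1940 to 3897, overlapped.

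Enrichment was set against features of the transcripts, as a description over 76 members that share all libraries. In the HBB line it was lower in members with a higher GC content, with Pearson r = −0.45 and Spearman rho = −0.50, and over 11292 other RNAs the same values were −0.40 and −0.41. In the Pkp4 cUTR line they were −0.38 and −0.41 over the members and −0.40 and −0.39 over the other RNAs. It was also lower in members with a longer coding sequence, with r = −0.38 and rho = −0.42 in HBB and r = −0.34 and rho = −0.44 in Pkp4 cUTR cells, against −0.21 and −0.34 and −0.15 and −0.28 over the other RNAs. Transcript length had r = 0.03 and rho = −0.15 in HBB cells over the members. The 8 mRNAs above the median in both lines had a median GC content of 46.9% and a median coding length of 420 bases, and the 8 below it had 52.7% and 753 bases, against 51.8% and 459 bases over all 77. These features are those of 1 annotated transcript per gene. *Rps20*, 1 of the 8 above the median, had the lowest GC content (41.3%) and the longest transcript (3706 bases). The effect of the choice of transcript was not tested.

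**Figure D5:**
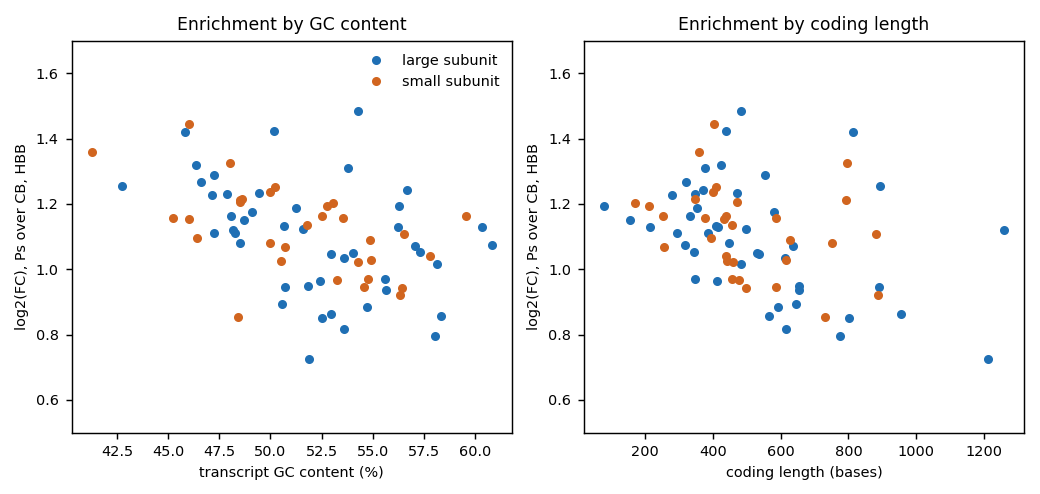
Enrichment in HBB protrusions (log2(FC)) against the GC content of the annotated transcript (left, %) and the length of its coding sequence (right, bases), for 76 mRNAs without *Rpl24*. Blue points are large-subunit and orange small-subunit mRNAs. The values fall towards the right in both panels, with r = −0.45 and r = −0.38.

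Other RNAs like these in level or length were less enriched. In the range of mean level of the members, 834 other RNAs had a median log2(FC) of 0.05 in both lines. Among 698 other RNAs with transcripts of 524 to 976 bases, the middle range of the members, the medians were 0.49 (HBB) and 0.45 (Pkp4 cUTR). These medians stood below the lowest member other than *Rpl24*.

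Related mRNAs outside the rule were read last. *Fau* encodes the small-subunit protein Rps30 fused to a ubiquitin-like protein, and it had 1.01 ± 0.13 and 0.99 ± 0.13 in HBB and Pkp4 cUTR cells. *Gnb2l1*, the older symbol of Rack1, a protein of the 40S head, followed with 0.73 ± 0.09 and 0.69 ± 0.09. Of 8 paralogs listed, 5 were in the table. *Rpl22l1*, a paralog of *Rpl22*, was more enriched than any member, with 1.83 ± 0.16 and 1.62 ± 0.15, while *Rpl7l1*, whose product acts in ribosome assembly, had 0.12 ± 0.06 and 0.06 ± 0.06 and passed the adjusted threshold in neither line (limma adjusted p = 0.0764 and 0.337).

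A list of 17 other mRNAs known to carry a TOP motif, for elongation and initiation factors and a few further proteins, was in the table in full. All 17 rose in both lines at an adjusted p under 0.05, with medians of 0.82 and 0.76, below those of the r-proteins, against 28.3% and 28.2% of all RNAs higher at this threshold. Past 2-fold were 6 and 5 of them, against 4.54% and 5.07% of all RNAs. They spread more widely than the r-protein mRNAs, from *Eef2*, the translocase of elongation, at 0.28 ± 0.10 to *Eif3e*, an initiation factor subunit, at 1.39 ± 0.11 in HBB cells. In Pkp4 cUTR cells the ends were *Pabpc1*, the poly(A)-binding protein, at 0.25 ± 0.07 and *Npm1*, a nucleolar chaperone, at 1.39 ± 0.11.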

How the data were processed

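RNA-Seq values of 16 samples were used, 4 each of protrusions and cell bodies of the HBB and the Pkp4 cUTR line, grouped by the sample labels. Per the methods of the study, libraries were stranded, and reads were aligned to mm10 with STAR 2.4.2a and counted with Rsubread. The authors deposited log2 CPM made with limma-voom (limma 3.26.1), after a filter on low values. From these, the reads behind each value were recovered (100% within 0.01 of a whole number) and refitted by voom in limma 3.58.1 under R 4.3.3, keeping the authors' library scaling, with a mean for each group and all 12900 RNAs, with Benjamini-Hochberg adjustment. The spread was estimated once per RNA over all 4 groups. Fold changes are on the log2 CPM scale with 0.5 added to the reads. For departures, every sample was shifted to the same r-protein median. The fit was tested on simulated reads.

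The members, lists and tests were chosen with earlier results of these data known. Members were named by rule: the 5 highest and 5 lowest of each subunit, members with a known role, the smallest p of the interaction and of each comparison between lines, and the highest and lowest level per kb. A few members and related mRNAs that these rules name are not reported here. Replicates of a group differed by more than sampling noise (chi-square over its degrees of freedom 3.65 to 53.0). Deviations from the group means correlated between samples of the lines with the same number over 10154 RNAs (0.33 to 0.63 for cell bodies and 0.20 to 0.39 for protrusions), which pairs the lines by number, while those of protrusions and cell bodies fell short of a correlation over 0.1 in every pair (0.05 to 0.39 in HBB and −0.36 to 0.00 in Pkp4 cUTR cells). Positions, lengths and GC content came from GENCODE vM21 (GRCm38), and 21 of the 77 genes share exon positions with another gene on either strand. The 112 pseudogene rows named after members held 1.82% to 2.70% as many reads as the members, and how reads shared with them were counted is not given in the sources used here. Alternatives were no precision weights, 3 other scalings, log2(CPM + 1), a mean log2 CPM above 1, the replicate block, added pseudogene reads, other thresholds, and leaving out each sample. Shares over all RNAs are those of the main fit. The block paired the fractions of a line by number for enrichment, its change and departures. For comparisons between the lines it paired the lines by number.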

Additional observations from a re-analysis of the deposited data

Results flagged for a closer look

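In each group of 4 samples, a sample was marked when its gap to the nearest of the others took up more of the group's range than Dixon's 95% critical value allows. This was done for the log2 CPM of the 35 named members, for the share of reads, and for the medians of the subunits and their difference, in 156 groups. There were 5 marks, and chance alone marks about 1 group in 20.

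Of these, 2 fell on HBB CB replicate 4, which was the highest of its group for *Rps3* (10.96, nearest 10.75) and for *Rpl14* (10.84, nearest 10.58). Leaving out both cell body samples numbered 4, an alternative chosen after seeing the data, gave 64 and 61 mRNAs past 2-fold in the HBB and the Pkp4 cUTR line. *Rpl7* was marked in HBB CB replicate 3, the lowest of its group (9.68, nearest 9.88), and in HBB Ps replicate 3, the highest of its group (11.42, nearest 11.22). *Rpl29* was marked in Pkp4 cUTR CB replicate 2, where it read 7.12 and the others all read 7.05. No share of reads and no subunit median was marked.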

How the results depend on the processing

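With reads scaled to totals, 13 (HBB) and 7 (Pkp4 cUTR) mRNAs passed 2-fold, 1 had a changed enrichment and 3 differed between cell bodies. Quantile normalization gave 7 and 0 past 2-fold, 21 with a changed enrichment, 18 differing between cell bodies, 48 and 39 departing from the r-protein median, and a large minus small difference of 0.0077 in HBB cells. The cause was not tested, and shares over all RNAs were not taken for these settings. Median centring, log2(CPM + 1), and a minimum fold change each left 0 differing between cell bodies. Without precision weights 32 departed in HBB cells, as with log2(CPM + 1). With the replicate block 13 departed in HBB and 13 in Pkp4 cUTR cells, and the block moved no other count by over 1.5 times. Without both cell body samples numbered 4, 12 departed in HBB cells, 0 differed between cell bodies and 1 (*Rps24*) between protrusions. Leaving out each sample in turn gave 48 to 64 (HBB) and 24 to 62 (Pkp4 cUTR) past 2-fold, 0 to 1 with a changed enrichment, 0 to 7 differing between cell bodies and 0 to 1 between protrusions, 10 to 24 and 15 to 23 departing, and large minus small differences of −0.048 to 0.0092 and −0.03 to 0.00. Of single values, *Rpl3* in HBB cells turned to −0.0088 under quantile normalization. *Rpl24* in Pkp4 cUTR cells turned to −0.23 with totals, −0.12 with quantile normalization, −0.0099 with log2(CPM + 1), and −0.15, −0.10 and −0.09 without Pkp4 cUTR CB replicate 2, CB replicate 3 or Ps replicate 2, in a range up to 0.32 over the samples left out. With a 1.5-fold threshold 76 mRNAs passed in each line. Few reads limited *Rpl24*, whose row held 17 to 46 per sample.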
